A study of Homo sapiens with 2 samples.

Results

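Collagen genes were the 44 genes whose name has the form COL, a type number, A and a chain number, out of 56544 genes in the deposited table. Each stood on a single entry. They were sorted into fibrillar (11 genes), basement membrane type IV (6), FACIT (10) and other (17) chains by the class each chain is known to belong to. The cells were HGC-27, a line established from an undifferentiated human gastric cancer. One culture received a peptide named SOS in the sample titles and SHAP in the series title, the other received a control peptide, and both were carried by PDPA micelles for 48 h. Each group is a single library (1 control, 1 SOS), so differences could not be checked against replicates or tested, and all values describe these 2 libraries only. Directions follow the names of the FPKM columns. The authors' deposited log2 ratio has the opposite sign (control over SOS), and if the column names were exchanged every direction would turn.

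Collagens are the main structural proteins of the extracellular matrix. Each chain carries stretches in which glycine recurs at the first place of each triplet of amino acids, which lets chains wind into a triple helix, either of identical chains or of partners from several genes. Fibrillar collagens form the rope-like fibres of connective tissue, type IV collagen forms the sheet of the basement membrane under epithelia, and FACIT collagens sit on the surface of fibrils. In tumours collagen is laid down chiefly by stromal fibroblasts, and carcinoma cells that have taken on a mesenchymal state can make it too.

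The label of the cells was set against marker genes. Of 14 markers of gastric epithelium only MUC1, a membrane mucin, reached an FPKM of 1, and CDH1, which encodes E-cadherin, was listed at 0 in control and at 0.016 in SOS. The keratin gene KRT20, the mucin gene MUC5AC and the trefoil gene TFF1 were at 0 in both. The summed FPKM of the 14 was 5.10 in control and 7.41 in SOS. All 11 fibroblast and stromal markers were at 1 or more in either library. Of these, 8 had a log2 ratio (defined below) above 0, beside 45.8% of all tested genes, and 3 had one under 0. They summed to 1191 in control and to 1563 in SOS, and to 649.6 and 747 without COL1A1 and COL3A1, which are on the list. DCN, which encodes the proteoglycan decorin, stood at 123 and 165. ACTA2, the smooth muscle actin of activated fibroblasts, was at 20.2 and 8.24, and the surface protein THY1 at 75.1 and 54.9. Of 6 mesenchymal markers 5 reached 1 in either library, 4 with a log2 ratio above 0, beside 45.8% of all tested genes, and 1 under 0. VIM was at 3161 and 3140, the transcription factor TWIST1 at 158 and 188, and ZEB1 at 12.9 and 23.9. CDH2, which encodes N-cadherin, stayed below 1, at 0.156 and 0.123. Markers of endothelium summed to 0.009 and 0.016, those of immune cells to 0.329 and 0.328, and those of smooth muscle to 0.833 and 1.45. The part of these marker levels in the collagen differences was not tested, and in a bulk library fewer cells making a chain and less RNA per cell cannot be told apart.

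The classes follow the known structure of the chains, and the glycine repeat is part of that structure. What follows describes the classes and gives them no separate support. In the coding sequence of each chain's longest complete GENCODE 29 transcript on GRCh38, the longest unbroken run of triplets that begin with a glycine codon (GGN) was counted. In 9 of the 11 fibrillar genes it was over 300 triplets long, between 337 and 343. COL24A1 and COL27A1 had 216 and 217. In the 33 other genes it reached at most 113, a length that 5 FACIT genes shared. The type IV genes carried more repeat in all, 429 to 449 triplets in runs of at least 5 against 327 to 365 in the fibrillar genes, but broken into 22 to 27 such runs. To show the difference, the end of the longest run is printed for a fibrillar and a type IV gene, 5′ to 3′ in coding direction, with the glycine codons that keep the spacing in capitals.
COL11A1: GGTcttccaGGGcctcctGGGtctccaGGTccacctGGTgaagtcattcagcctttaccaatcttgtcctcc
COL4A5: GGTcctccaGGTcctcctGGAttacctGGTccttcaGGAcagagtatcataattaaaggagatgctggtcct
In COL11A1 (chromosome 1, minus strand) the stretch shows the close of 338 unbroken triplets. In COL4A5 (chromosome X, plus strand) a run of 42 ends, and glycine codons resume out of step. The 22 genes that reached an FPKM of 1 had a longest run of 23 to 343 triplets (median 100), and the other 22 of 28 to 339 (median 53). The longest transcripts of the detected genes had a median GC content of 60.7%, against 51.4% for the others and 49.0% for all tested genes.

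**Figure D1:**
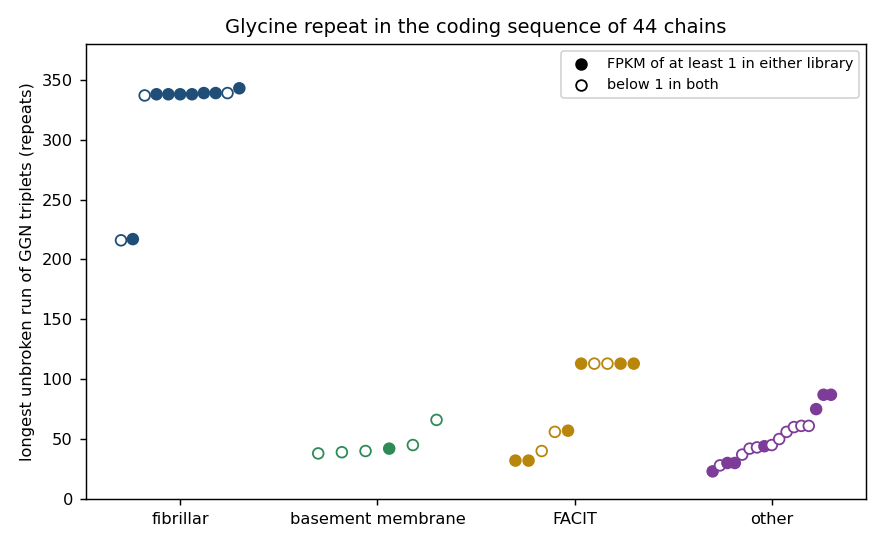
Longest unbroken run of triplets that begin with a glycine codon (y axis, number of repeats) in the coding sequence of 44 collagen genes by class (x axis). Filled points are genes whose FPKM reached 1 and open points the others, and all fibrillar points lie above the 113 repeats that the other classes reach.

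Fibrillar chains held most of the summed collagen FPKM. By its name FPKM counts sequenced fragments relative to transcript length and library size. Near 0, however, the deposited values fell on a common step of about 0.009 in control and 0.008 in SOS, whatever the length. In control COL2A1 and COL6A3 both stood at 0.018, with longest transcripts of 5071 and 10749 bases. A division by length is thus not seen, and levels of different chains cannot be set side by side per length. The FPKM of all 44 genes summed to 845 in control and 1332 in SOS, a 1.58-fold difference, or 0.0953% and 0.176% of the summed FPKM of all genes. Fibrillar chains held 75.5% of the collagen sum in control and 76.8% in SOS, FACIT chains 10.6% and 9.75%, other chains 13.0% and 12.5%, and type IV chains 0.959% and 0.955%. The class shares thus differed little between the libraries. Within the fibrillar class the balance differed more. COL3A1, the chain of type III collagen, held 39.2% of the collagen sum in control and 32.8% in SOS, while COL1A1, the main chain of type I collagen, held 24.8% and 28.4%, and COL11A1 3.56% and 6.51%. With COL6A1, the 3 most abundant chains were the same in both libraries and held 71.4% and 68.1%.

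Of the 44 genes, 22 reached an FPKM of 1 in at least 1 library, and 21 of them in both. These are called measured. For them the difference is given as log2((SOS FPKM + 1)/(control FPKM + 1)), which understates differences at low level, and folds are plain ratios of the FPKM. Of the 22 measured chains 18 were above 0, which is 81.8%, against 45.8% of 14288 tested genes. Their median was 0.57, against -0.05 for all tested genes. By the size rule, an absolute log2 ratio of at least 1, 3 chains (13.6%) were higher in SOS and none was lower. Of all tested genes 3.74% were higher and 1.64% lower by that rule, and of protein-coding genes alone 2.08% were higher. The 3 chains were COL11A1, COL5A1 and COL15A1. The authors' deposited table gives its mark of significance to 4 of the 22 (18.2%), these 3 and COL13A1, all higher in SOS. That mark stands on 5.89% of the tested genes, and on 3.63% with the higher value in SOS. The test behind it is not given in the sources used here. COL1A1, COL3A1 and COL6A1 carry no mark, though their deposited adjusted p-values are as small as those of the 4 marked chains. All 4 have an absolute deposited log2 ratio over 1. The mark comes from the same 2 libraries as the size rule and gives it no separate support.

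**Figure D2:**
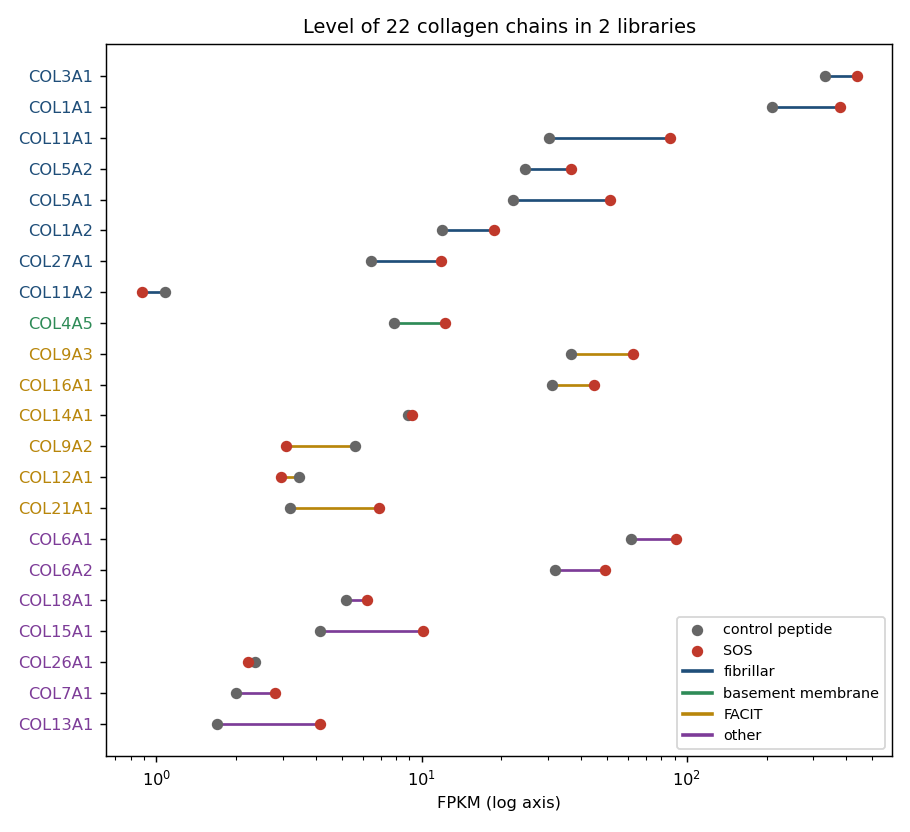
FPKM (x axis, log scale) of the 22 measured collagen chains, grouped by class (label and line colour), in the control peptide library (grey) and the SOS library (red), 1 library each. The SOS point lies to the right for 18 chains and to the left for COL11A2, COL9A2, COL12A1 and COL26A1.

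Scaling, gene length and level moved with these differences. With the SOS library scaled to the summed FPKM of control the median of all tested genes moved from -0.05 to 0.15 and that of the measured chains from 0.57 to 0.78. Long genes were on the whole higher in SOS: 14 measured chains fall in the fifth of tested genes with the longest transcripts, whose median was 0.09, and the 14 had a median of 0.53. Abundant genes were on the whole lower: 8 measured chains fall in the fifth with the highest mean FPKM, whose median was -0.34. All 8 were above 0, with a median of 0.68. With a linear trend on length and mean FPKM removed, 17 of the 22 chains were above 0 and their median was 0.68. The part of length and level in single chains was not tested otherwise.

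**Figure D3:**
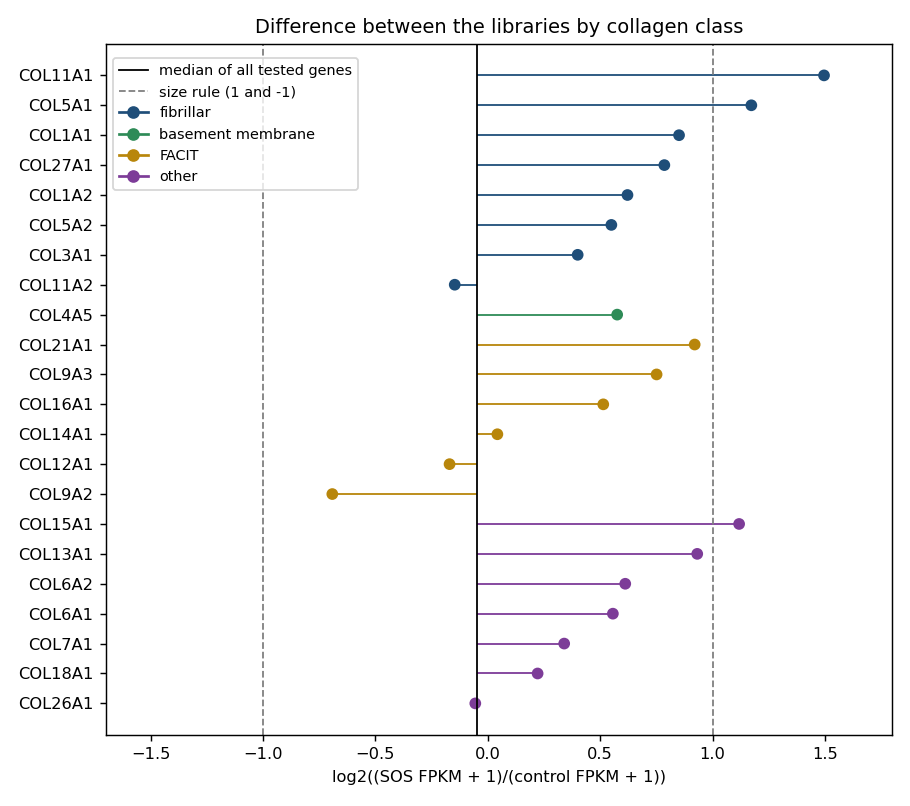
Log2((SOS FPKM + 1)/(control FPKM + 1)) on the x axis for the 22 measured collagen chains, ordered within their class. The solid line is the median of all tested genes (-0.05) and the dashed lines mark the size rule, which COL11A1, COL5A1 and COL15A1 pass.

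Among fibrillar chains, 7 of the 8 measured were above 0, beside 45.8% of all tested genes. Their median was 0.70, with a range from -0.15 to 1.496. COL11A1 (ENSG00000060718, chromosome 1, 102876467 to 103108872), the type XI chain that helps start thin fibrils in cartilage, had an FPKM of 30.1 under the control peptide and of 86.7 under SOS, 2.88-fold higher. Of all tested genes 0.847% had a higher log2 ratio than its 1.496. It ranked 7 among the collagen genes in control and 4 in SOS. COL5A1 (chromosome 9, 134641774 to 134844843), a chain of type V collagen that starts and limits type I fibrils, was at 22.2 and 51.2, 2.31-fold higher. Its log2 ratio of 1.17 was exceeded by 2.30% of tested genes. Its partner COL5A2 (chromosome 2, 189031896 to 189225312) differed less, at 24.6 and 36.5, a log2 ratio of 0.55. The order of these partners turned, with COL5A1 below COL5A2 in control and above it in SOS.

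The most abundant fibrillar chains were also higher in SOS but did not pass the size rule. COL1A1 (chromosome 17, 50183289 to 50201632) stood at 209.7 under the control peptide and at 379 under SOS, 1.81-fold higher, with a log2 ratio of 0.85. After scaling to equal sums that value was 1.08, and with the trend on length and level removed 1.20, both past the rule. COL1A2 (chromosome 7, 94394561 to 94431232), the other chain of type I collagen, was at 11.9 and 18.8. COL3A1 (chromosome 2, 188974320 to 189012746) was the most abundant collagen gene in both libraries, at 331 and 437, a log2 ratio of 0.40. With the trend on length and level removed its value was 0.79. COL27A1, a fibrillar chain with a shorter helix known from cartilage, was at 6.45 and 11.8, 1.84-fold higher. COL11A2 was low and close in both, at 1.08 and 0.878. Below an FPKM of 1 in both libraries were COL2A1, the main cartilage collagen, at 0.018 and 0.115, COL24A1 at 0.146 and 0.123, and COL5A3, another type V chain, at 0.375 and 0.131. The authors' deposited table marks COL5A3 as significant, with a log2 ratio of 1.65 for control over SOS.

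The basement membrane class was nearly silent apart from a single chain. COL4A5 (chromosome X, 108439844 to 108697545), which in kidney glomeruli joins COL4A3 and COL4A4 and is mutated in Alport syndrome, stood at 7.89 under the control peptide and at 12.2 under SOS, 1.55-fold higher. Its log2 ratio was 0.58. By the authors' deposited ratio, turned to SOS over control and with its median offset against FPKM removed, it was 0.96. COL4A1 and COL4A2, the chains of nearly every basement membrane, had FPKM of 0.009 and 0.018 in the control library, and of 0.008 and 0.025 in the SOS library. The smallest FPKM above 0 in the table is 0.009 in control and 0.008 in SOS, so these chains stood at or just above that value. COL4A6 was at 0.119 and 0.066, COL4A3 at 0 and 0.016, and COL4A4 at 0.064 and 0.361. The deposited table marks COL4A4 as significant, with a log2 ratio of -2.28 for control over SOS, at levels below the minimum used here.

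COL4A5 and COL4A6 lie head to head on chromosome X and point away from each other, with 346 bases between the GENCODE genes. The RefSeq promoter windows, 250 bases before to 50 after a start site, overlap by 121 bases for COL4A5 and the nearer of the 2 COL4A6 start sites. COL4A5 was 66.3 times the FPKM of COL4A6 in control and 186 times in SOS, the latter value resting on a COL4A6 value of 0.066. The COL4A5 window is printed for that contrast, 5′ to 3′ in the direction of the gene, in the GRCh38.p14 build, with the CCAAT motif in capitals on either strand.
COL4A5 (chrX:108439588-108439887, plus strand): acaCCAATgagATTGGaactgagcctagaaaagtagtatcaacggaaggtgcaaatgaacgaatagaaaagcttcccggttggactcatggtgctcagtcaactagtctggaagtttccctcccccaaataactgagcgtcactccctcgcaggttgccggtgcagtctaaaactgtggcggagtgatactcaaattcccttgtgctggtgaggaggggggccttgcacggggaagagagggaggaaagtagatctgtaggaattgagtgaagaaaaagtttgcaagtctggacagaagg
Other neighbours on a chromosome did not always share a level. COL3A1 and COL5A2 stand 19149 bases apart on chromosome 2 at 331 and 24.6 in control. COL6A1 and COL6A2, 93046 bases apart on chromosome 21, were at 61.8 and 31.8. COL4A1 and COL4A2, which overlap at their starts on chromosome 13, were both near 0.

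FACIT chains were mixed. Of 10 genes 6 were measured, 4 above 0 and 2 below, with a median of 0.28 and none past the size rule. Among all tested genes 45.8% were above 0, 3.74% higher by the rule and 1.64% lower. In a class this small, none past the rule lies near that background. COL21A1 stood at 3.18 under the control peptide and at 6.90 under SOS, 2.17-fold higher, with a log2 ratio of 0.92 that passed 1 with a pseudocount of 0.1, with scaling to equal sums and by the authors' ratio (1.10, 1.12 and 1.07). It was 0.54 with a pseudocount of 5 and 0.82 with the trend removed. COL16A1, found on thin fibrils in skin and cartilage, was at 31.0 and 44.7. COL14A1, a fibril surface collagen, was at 8.91 and 9.20, and COL12A1, known from tendon and tumour stroma, at 3.44 and 2.95. The COL12A1 log2 ratio of -0.17 became 0.0014 with scaling to equal sums, and that of COL14A1, 0.04, became -0.015 with the trend removed.

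The chains of type IX collagen, a cartilage FACIT, went opposite ways. COL9A3 (chromosome 20, 62816244 to 62841159) stood at 36.7 under the control peptide and at 62.5 under SOS, 1.70-fold higher, and was the most abundant FACIT gene in both libraries. COL9A2 (chromosome 1, 40300487 to 40317813) was at 5.60 and 3.09, 1.82-fold lower, and had the lowest log2 ratio of the measured chains (-0.69). It was below 0 in all 9 alternatives, from -0.84 to -0.39. COL9A1 was at 0 in both. COL9A3 overlaps the gene TCFL5 on the opposite strand, which stood at 14.5 and 14.6. Whether the counting used strand is not given in the sources used here, so reads of such partners cannot be told apart. Of the remaining FACIT genes, COL20A1 was at 0.421 and 0.599 and carries the authors' mark, COL19A1 was at 0.009 and 0.008, and COL22A1 was at 0 in both.

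Among the other classes 7 of 17 chains were measured, 6 of them above 0, beside 45.8% of all tested genes, with a median of 0.56. COL15A1 (chromosome 9, 98943179 to 99070792), a multiplexin that links basement membranes to the matrix beside them, stood at 4.13 under the control peptide and at 10.1 under SOS, 2.45-fold higher. Its log2 ratio of 1.12 was exceeded by 2.68% of tested genes, and it was 0.73 with a pseudocount of 5. COL18A1, the other multiplexin and the source of the fragment endostatin, was at 5.18 and 6.21. It overlaps SLC19A1 on the opposite strand, which was at 28.4 and 17.2. COL13A1 (chromosome 10, 69801867 to 69964275), a transmembrane collagen found at the neuromuscular junction, was at 1.69 and 4.12. That is 2.45-fold higher as well, with a log2 ratio of 0.93 in which the pseudocount weighs more, 1.24 with a pseudocount of 0.1 and 0.45 with one of 5. It was 0.79 with the trend removed. COL7A1, which forms the anchoring fibrils under the epidermis, was at 1.996 and 2.79, and COL26A1 at 2.34 and 2.22.

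Type VI collagen forms beaded filaments around cells from COL6A1, COL6A2 and a longer partner chain. COL6A1 (chromosome 21, 45981737 to 46005050) was at 61.8 in control and 91.35 in SOS, and COL6A2 (46098097 to 46132849) at 31.8 and 49.2. Their log2 ratios were 0.56 and 0.61, and their FPKM stood to each other as 1.94 in control and 1.86 in SOS. The usual partner COL6A3 was at 0.018 and 0.074, and the alternative partners COL6A5 and COL6A6 at 0 in both and at 0.073 and 0.025. None of the partner chains thus reached an FPKM of 0.1 in either library. Near 0 as well were the short network chains COL8A1 (0.064 and 0.148), COL8A2 (0.33 and 0.42) and COL10A1 (0 and 0.033). COL17A1, the hemidesmosome collagen of epithelia, was at 0.009 and 0, and COL28A1 at 0.027 and 0.016. COL23A1 and COL25A1 were at 0 in both. In all, 5 of the 44 genes were at 0 in both libraries and 17 lay above 0 without reaching 1, up to 0.599.

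Several chains that assemble together had unequal FPKM in both libraries, while COL5A1 and COL5A2 were close in control. The ratios are those of the deposited values and were not corrected for transcript length. COL1A1 was 17.6 times the FPKM of COL1A2 in control and 20.1 times in SOS. In tissue, type I collagen is usually built with more of the first chain than of the second, and a form of COL1A1 alone is known from some tumours and embryos. COL9A3 was 6.56 times COL9A2 in control and 20.2 times in SOS. COL11A1 was 27.9 times COL11A2 in control and 98.8 times in SOS, the latter value resting on a COL11A2 value of 0.878, below the minimum of 1. COL11A1 is also known to join type V chains in mixed molecules, and it stood at 1.36 times COL5A1 in control and 1.69 times in SOS. COL5A1 was 0.899 times COL5A2 in control and 1.40 times in SOS. The ratio of COL6A1 to COL6A2 differed little.

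**Figure D4:**
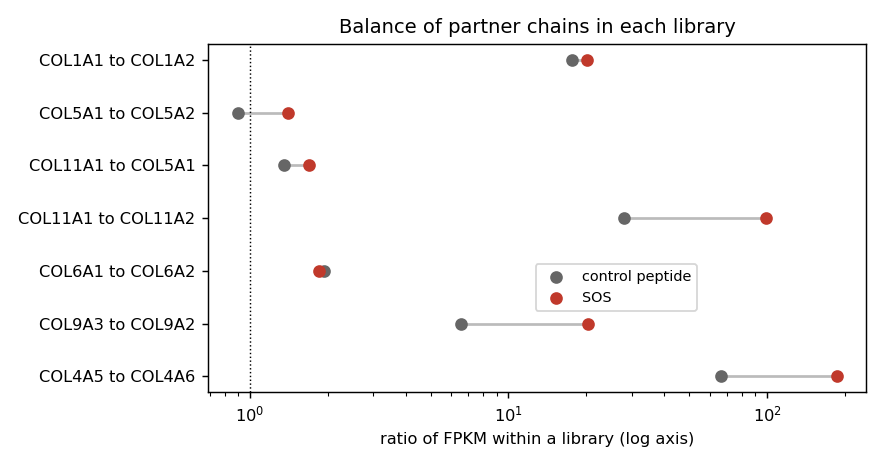
Ratio of the FPKM of 2 collagen chains within a library (x axis, log scale) for 7 pairs, in the control peptide library (grey) and the SOS library (red), 1 library each, with the dotted line at equal levels. The ratio of COL6A1 to COL6A2 was close in both (1.94 and 1.86), while that of COL9A3 to COL9A2 went from 6.56 to 20.2.

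The promoters of the 3 chains past the size rule and of COL13A1, which the authors' table marks too, are shown because these chains had the highest differences of the set. They are RefSeq windows of 300 bases in the GRCh38.p14 build, 5′ to 3′ in the direction of the gene. Capitals mark a match on either strand to a searched motif. These were TATAAA for the TATA factor, CCAAT for the factor NF-Y, ACGTG or the form GCGTG for the hypoxia factors, CAGACA for SMAD proteins and the word GGAATG for TEAD proteins. No overlap between motifs occurs in these windows.
COL11A1 (chr1:103108473-103108772, minus strand): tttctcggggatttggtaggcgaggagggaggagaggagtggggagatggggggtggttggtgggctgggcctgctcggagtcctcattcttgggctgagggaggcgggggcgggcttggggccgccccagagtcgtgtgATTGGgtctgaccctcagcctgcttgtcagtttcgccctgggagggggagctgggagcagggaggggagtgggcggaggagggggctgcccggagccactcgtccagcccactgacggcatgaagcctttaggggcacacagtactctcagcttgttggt
COL5A1 (chr9:134641553-134641852, plus strand): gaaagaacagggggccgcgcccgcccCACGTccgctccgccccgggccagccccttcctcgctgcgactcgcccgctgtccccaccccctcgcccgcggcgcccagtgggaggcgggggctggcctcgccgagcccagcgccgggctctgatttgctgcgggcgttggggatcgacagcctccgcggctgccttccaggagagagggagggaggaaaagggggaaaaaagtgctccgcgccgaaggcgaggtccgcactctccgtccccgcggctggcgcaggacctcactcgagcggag
COL15A1 (chr9:98943657-98943956, plus strand): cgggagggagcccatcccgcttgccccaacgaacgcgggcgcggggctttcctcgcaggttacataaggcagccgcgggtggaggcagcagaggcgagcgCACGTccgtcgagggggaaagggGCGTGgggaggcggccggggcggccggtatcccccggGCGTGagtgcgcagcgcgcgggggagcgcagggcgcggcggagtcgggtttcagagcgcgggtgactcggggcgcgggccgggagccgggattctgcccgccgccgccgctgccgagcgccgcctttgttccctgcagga
COL13A1 (chr10:69801656-69801955, plus strand): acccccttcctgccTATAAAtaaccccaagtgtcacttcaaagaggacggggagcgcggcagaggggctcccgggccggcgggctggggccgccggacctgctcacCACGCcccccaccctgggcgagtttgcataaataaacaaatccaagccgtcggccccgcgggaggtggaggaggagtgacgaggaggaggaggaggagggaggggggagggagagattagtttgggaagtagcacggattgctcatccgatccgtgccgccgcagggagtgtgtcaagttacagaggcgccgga
The COL11A1 window held the CCAAT motif, COL5A1 held ACGTG, COL15A1 held ACGTG and GCGTG, and COL13A1 held TATAAA and GCGTG. None of them held CAGACA or GGAATG in these letters. RefSeq windows were matched by symbol for 32 of the 44 chains, 15 of them measured. A window of any start site held GCGTG for 9 of these 15 chains, ACGTG for 4, TATAAA for 4, CCAAT for 3, CAGACA for 2 and GGAATG for 2. Of all 27305 genes with a window, 40.6% held GCGTG, 24.9% ACGTG, 14.0% TATAAA, 39.7% CCAAT, 19.9% CAGACA and 16.7% GGAATG. No entry was matched for COL1A1, COL1A2, COL2A1, COL3A1, COL5A2, COL6A1, COL6A5, COL8A1, COL9A3, COL14A1, COL20A1 and COL22A1. A match describes the letters and is not a site of binding.

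Genes that fold and secrete collagen showed differences in single members. Of 26 listed genes 23 were measured, 16 of them above 0, with a median of 0.16, beside 45.8% above 0 and a median of -0.05 for all tested genes. By the size rule 1 was higher and 1 lower, against 3.74% and 1.64% of all tested genes, so these counts lie near the background. P4HA1, a catalytic subunit of the prolyl hydroxylase that stabilises the helix, was higher by the size rule, at 28.2 in control and 58.3 in SOS. Its relative P4HA2 was at 12.1 and 25.0, the lysyl hydroxylase PLOD2 at 16.0 and 29.7, and the prolyl 3-hydroxylase P3H2 at 12.9 and 21.0. LARP6, which binds a stem-loop in type I collagen messenger RNA, was lower by the size rule, at 20.9 and 8.88. By the authors' deposited table LARP6 differed less, with a log2 ratio of -0.43 for SOS over control. That ratio keeps the median offset of 0.152 toward control that the deposited ratios have against FPKM.

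Outside the cell, procollagen is trimmed and crosslinked. Of 19 genes of these steps 15 were measured, 12 above 0, with a median of 0.38, and 2 were higher by the size rule, beside 45.8% above 0 and 3.74% higher among all tested genes. The crosslinking enzymes LOX and LOXL2 were higher by the size rule, LOX at 17.3 in control and 52.2 in SOS, LOXL2 at 19.9 and 45.7. BMP1, the protease that removes the end of fibrillar procollagens, was at 21.0 and 41.0. Its log2 ratio was 0.93 by FPKM and 0.39 in the authors' deposited table, with the offset of 0.152 toward control left in. ADAMTS2, which trims the opposite end, was at 7.10 and 11.5, and LUM, a proteoglycan on fibrils, at 89.1 and 139.

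All 5 measured collagen receptors of 13 listed were above 0, beside 45.8% of all tested genes, with a median of 0.72 and none past the size rule. One of them, ADGRG6, reached the minimum only in SOS, at 0.842 in control and 2.36 in SOS. The log2 ratio of ITGB1 was only 0.0071, and receptors below the minimum went both ways. The receptor kinases DDR1 and DDR2 were higher without passing it, DDR1 at 11.0 in control and 18.8 in SOS, DDR2 at 29.7 and 54.0. MRC2, which takes up collagen fragments, was at 33.97 and 53.7. The integrin subunits that bind collagen, ITGA1, ITGA2, ITGA10 and ITGA11, all stayed under an FPKM of 1, while their partner ITGB1 was at 104 and 105. Genes of collagen cleavage had a median of 0.10, with 6 of 9 measured above 0 and none past the size rule. Among all tested genes 45.8% were above 0, 3.74% higher by the rule and 1.64% lower. In lists this short, none past the rule lies near that background. The protease inhibitor TIMP1 was at 69.5 and 41.7, its relative TIMP2 at 48.9 and 59.8, and the membrane protease MMP15 at 14.3 and 16.3. Of the genes of TGF-beta signalling to collagen genes 10 were measured, 5 above 0 and 5 below, near the 45.8% above 0 of all tested genes. Their median was -0.00089 and turned positive in 5 of 9 alternatives. TGFB3 was at 18.5 and 23.1, the receptor TGFBR1 at 9.13 and 11.2, and the transcription factor SP1 at 27.2 and 23.6. The largest differences of the list lay under an FPKM of 5. SKIL was at 0.787 in control and 2.39 in SOS, a log2 ratio of 0.92, and reached the minimum only in SOS. TGFB2 was at 2.10 and 4.19, a log2 ratio of 0.74.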

How the data were processed

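RNA from HGC-27 cells in 1 control peptide and 1 SOS library was analysed from 1 table. HISAT2, RSEM and Cufflinks were run on the GRCh38.p10 build, per the submitters' processing notes, with roles and versions not given in the sources used here. Per the file headers the authors deposited an FPKM column for each library, a log2 ratio, a p-value and its adjusted form, whose test is not given either. The table holds no counts, so the depth of each library is unknown and no counting interval was computed.

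Entries without a gene name (412) or with a name turned into a date (27) were left out, and FPKM of 213 names on several entries were summed. The size rule was an absolute log2 ratio of at least 1 with a pseudocount of 1, among genes that reached an FPKM of 1 in at least 1 library. Code was tested on simulated data. Named were all chains at that minimum. Of each of 5 partner lists came genes past the rule and the 3 largest differences among the rest that reached an FPKM of 5. Other genes were named for their role or for the size of their difference. Classes, lists and members were chosen with earlier results of these data known, and the chain pairs of types IX and XI and of COL4A5 and COL4A6 after their values were seen. Positions and transcripts come from GENCODE 29 (GRCh38), promoters from RefSeq (GRCh38.p14). Protein sequences were not used here. Analyses used Python 3.11.15, numpy 2.4.6 and pandas 2.3.3.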

Additional observations from a re-analysis of the deposited data

How the results depend on the processing

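With 1 library per group the limits are a depth that is not stated and the absence of replicates. Low chains rest on values near the smallest FPKM in the table. No paired analysis was possible because each group has 1 library. Of the 22 measured chains, 19 kept their direction in every alternative that gave them a value, 16 of them in 9 alternatives and 3 in 8, since 5 chains lie below a minimum FPKM of 5. The others were COL12A1 and COL26A1, at 0.0014 and 0.10 with scaling to equal sums, and COL14A1, at -0.015 with the trend removed. Of 193 values of single chains, 8 rose past the size rule, 1 fell under it, 3 changed sign without passing it and 181 did neither. Causes of the changes were not tested, except that another minimum changes which genes are measured.

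The count of chains higher by the size rule was 3 as reported, 5 with a pseudocount of 0.1, 6 with scaling to equal sums 5 by the authors' ratio with its offset removed, 4 with the trend removed, and 2 with a pseudocount of 5, where COL15A1 was lost. The share of all tested genes higher by the rule moved too: it was 3.74% as reported, 7.66% with a pseudocount of 0.1, 6.03% with equal sums, 6.59% by the authors' ratio, 3.09% with the trend removed and 0.693% with a pseudocount of 5. No chain was lower by the rule in any setting, beside 1.64% of all tested genes as reported. For 22 chains that lies near the background. For partner genes the count higher was 3 as reported, 6 with a pseudocount of 0.1, 9 with equal sums, 7 by the authors' ratio, 5 with the trend removed, and 2 with a pseudocount of 5 or with equal medians, beside the same shares of all tested genes (3.53% with equal medians). The count lower was 1, and became 2 with a pseudocount of 0.1, 0 with one of 5 and 0 with equal sums. The share of all tested genes lower was 1.64%, 3.09%, 0.448% and 1.13% in these settings. With no minimum FPKM, which adds genes near 0, medians were 0.13 for all chains, 0.016 for the basement membrane class, 0.11 for FACIT chains, 0.10 for the other classes, 0.22 for processing and crosslinking, 0.15 for receptors and 0.045 for cleavage. With a minimum of 5 they were 0.51 for FACIT chains and 0.62 for processing and crosslinking. With equal sums they were 0.49 for FACIT chains, 0.38 for folding and secretion, 0.60 for processing and crosslinking and 0.30 for cleavage. By the authors' ratio the basement membrane class, a single chain, was 0.96 and cleavage 0.25. With the trend removed, folding and secretion was 0.35 and cleavage 0.058. The median of the TGF-beta list lay close to 0. It was positive with a pseudocount of 5 (0.010), no minimum (0.18), equal sums (0.21), the authors' ratio (0.19) and the trend removed (0.038), and negative with a pseudocount of 0.1 (-0.0026), a minimum of 5 (-0.10) and equal medians (-0.024).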
